A study of Harpegnathos saltator with 22 samples.

Results

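The 200 genes described here were those whose mean count in ovaries of the ant Harpegnathos saltator leaned furthest towards gamergates. Gamergates are workers that have left worker tasks, mate and lay eggs; their ovaries hold growing follicles, whereas the ovaries of other workers stay largely inactive. An ovary of this kind is built of germ cells, which become nurse cells and oocytes, and of follicle cells, which surround the oocyte and secrete the eggshell. The study asked what happens to ovary RNA when siRNA directed at Kr-h1 is injected into the head. Kr-h1 encodes a transcription factor with zinc fingers that responds to juvenile hormone and, in some insects, to ecdysone.

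Members were chosen from measured values. For each gene the authors' mean normalized count over all worker libraries of the knockdown comparison, plus 1, was divided by the same value in gamergates, and the log2 of this ratio was ranked. Genes needed a mean of at least 100 in 1 of the castes, 3 genes were left out by the rule, and the 200 lowest of 8448 eligible genes were taken, from a table of 13693 genes. The ratio used the control and the Kr-h1 libraries of both castes. The caste difference of the members is therefore a description. The contrast between siRNAs within a caste was not ranked, but it comes from the same libraries, and a low level in the Kr-h1 workers alone also moved a gene towards the members.

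The 4 groups were ovaries of mature gamergates with GFP siRNA (6 ants) or Kr-h1 siRNA (7 ants) and of mature workers with GFP siRNA (5 ants) or Kr-h1 siRNA (4 ants). The GFP siRNA served as control, so all ants had been injected into the head with dicer-substrate siRNA and a transfection reagent, and ovaries were taken 24 h later. Each of the 22 libraries was made from polyadenylated RNA of 1 ant. The deposited table holds no values per ant, so the spread of single ants cannot be shown and the depth of each library is unknown.

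Ovary markers were present in gamergates and workers alike. The authors' deposited table lists the germ cell helicase gene vas with mean counts of 6638 in gamergates and 7518 in workers, and the yolk protein receptor gene yl with 10939 and 5896. Kr-h1 itself had means of 42.3 and 38.7 in that table. Its log2 change after Kr-h1 siRNA there was 0.26 in gamergates (adjusted p = 0.734) and -0.48 in workers (adjusted p = 0.706), so no change of the target was detectable in the ovary.

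The members were few genes with a large part of the gamergate counts. Together they took 10.1% of the summed mean counts in gamergates and 0.318% in workers. A single gene, LOC105181257, which has no descriptive symbol in the reference, took 5.50% in gamergates, the largest share of any gene there, and 0.192% in workers. Without it the other members took 4.57% and 0.126%. These are shares of reads, not divided by transcript length.

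The median member had a mean of 685 normalized counts in gamergates, with a range from 104 to 657486, and of 16.4 in workers, with a range from 2.36 to 19261. The median over all eligible genes was 829 in gamergates and 698 in workers, so the members were ordinary in gamergates and low in workers. In workers, 173 of the 200 had a mean under 100 and 65 had a mean under 10. The members' log2 ratio ran from -6.85 to -4.25. The means of the castes come from separate comparisons in the deposited table, and ratios of the control means solved from them lay 0.14 below the deposited caste fold changes on the log2 scale (median difference -0.14 over eligible genes). In bulk ovaries, fewer cells of a type and less RNA per cell cannot be told apart.

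**Figure D1:**
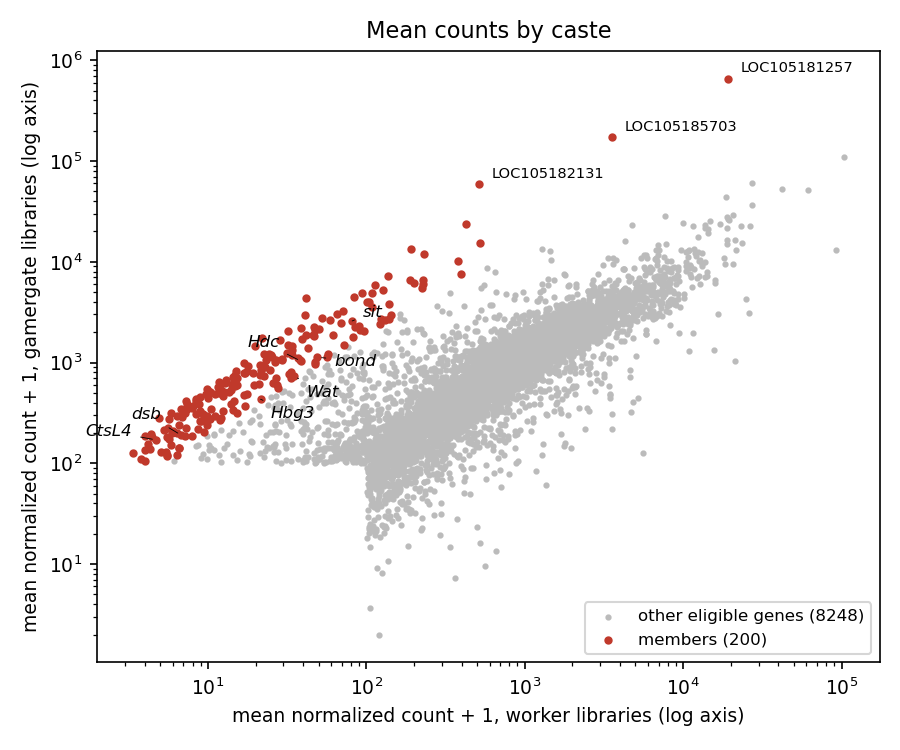
Mean normalized count plus 1 in worker libraries (x) and gamergate libraries (y) for the 8448 eligible genes, both on log axes; the 200 members are red. The members form a band along the upper left edge, and LOC105181257 stands at the top with means of 657486 in gamergates and 19261 in workers.

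In the control ants alone, the deposited comparison of workers with gamergates gave members a median log2 fold change of -5.12, from -6.61 to -3.15. All 198 members with an adjusted p were called lower in workers, where 26% of all tested genes were lower and 27.2% higher. The rule used this contrast and nothing is read from that count. After Kr-h1 siRNA the same contrast, computed from the 3 deposited fold changes, had a median of -5.78 and ran from -8.17 to -0.66.

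**Figure D2:**
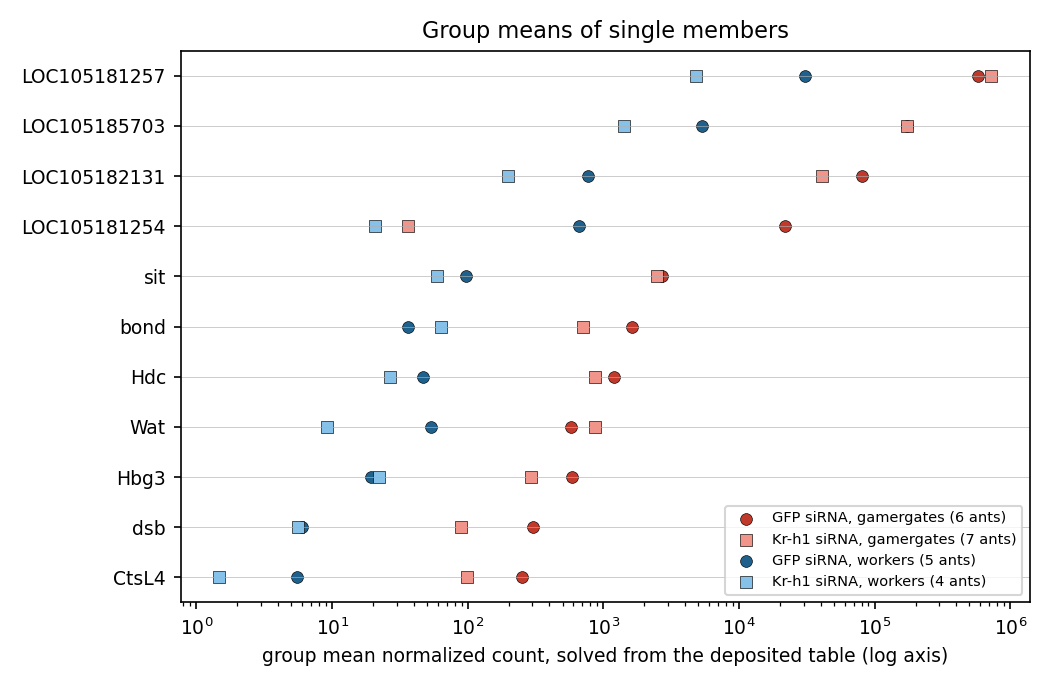
Group mean normalized counts (log axis) of 11 members in the 4 groups, solved from the deposited means and fold changes; there is 1 row per gene and no error bar because the table holds no values per ant. In the control groups every gene shown stands higher in gamergates, and LOC105181254 has means of 21816 and 36.2 in the control and Kr-h1 gamergates. That change of LOC105181254 has no p-value in the deposited table.

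Only 7 of the 200 members (3.5%) have a descriptive symbol in the reference, against 43.5% of the eligible genes and 16.5% of the 200 genes at the worker-rich end of the same ratio. These 7 were sit, bond, Wat, Hdc, CtsL4, dsb and Hbg3. A symbol here is taken from a gene of another insect. The remaining 193 are given by their identifiers, without a role.

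Of the 7, 3 carry names of genes of fatty acid metabolism. The gene sit (LOC105190303) shares its name with a fly elongase of very long chain fatty acids. Its group means were 2690 in control and 2492 in Kr-h1 gamergates, and 97.0 and 59.7 in the corresponding workers. The deposited log2 change was -0.11 in gamergates (recovered SE 0.67, adjusted p = 0.926) and -0.70 in workers (recovered SE 1.00, adjusted p = 0.698), so neither siRNA contrast exceeded its error.

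The gene bond (LOC105190301) is named after another fly fatty acid elongase. Its means were 1614 in control and 712 in Kr-h1 gamergates, and 36.2 and 63.2 in workers. It stood lower with Kr-h1 siRNA in gamergates and higher in workers. Neither deposited change passed (log2 -1.18, adjusted p = 0.116, and 0.81, adjusted p = 0.511), and the difference of 1.99 between castes had an SE of 0.90 (z test, adjusted p = 0.146).

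Wat (LOC105191648), which shares its letters with the fly gene waterproof for a fatty acyl-CoA reductase, was the member with a symbol that changed. It fell in workers from a mean of 53.8 to 9.09 (deposited log2 change -2.56, recovered SE 0.82, adjusted p = 0.0423). In gamergates its means were 582 and 865, and the deposited log2 change was 0.57 (recovered SE 1.41, adjusted p = 0.809). Its worker call was lost when p-values were adjusted over every gene with one (adjusted p = 0.0507). The call was also lost with fold changes centred by strata of mean count (z test with the recovered SE, adjusted p = 0.114).

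Among the other members with a symbol, Hdc is the gene of histidine decarboxylase, which makes histamine. It had means of 1207 and 873 in control and Kr-h1 gamergates and of 46.9 and 26.8 in workers. CtsL4 is named for a cathepsin L-like protease and had means of 251 and 99.5 in gamergates and 5.56 and 1.47 in workers. The scavenger receptor gene dsb, known as debris buster in the fly, had means of 305 and 89.3 in gamergates and 5.96 and 5.61 in workers.

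Hbg3, named for an alpha-glucosidase of the honey bee, had means of 592 and 293 in gamergates, and in workers a control mean of 19.3 and a deposited log2 change of 0.19. None of Hdc, CtsL4, dsb and Hbg3 passed in either caste. The smallest adjusted p in the deposited table among them was 0.230, for Hbg3 in gamergates. CtsL4 has no adjusted p in workers.

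Of the members without a symbol, the strongest lean towards gamergates was that of LOC105182131, with mean counts of 59369 in gamergates and 514 in workers, a 115-fold difference. It was followed by LOC105181252 (4399 and 40.6), LOC105183394 (1750 and 21.0), LOC105192561 (1459 and 18.9) and LOC105186352 (2994 and 40.2). The members with the largest means were LOC105181257, LOC105185703 (173033 and 3581) and LOC105182131, and in gamergates they ranked 1, 2 and 5 among all genes by mean count. In workers, by the same measure, they ranked 19, 413 and 5231.

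At the edge of the rule, the last 5 members were LOC112589965, LOC105187097, LOC105191334, LOC105186630 and LOC105186089, with log2 ratios from -4.32 to -4.25. The first genes outside, LOC105192652, LOC105184427, LOC105190795, LOC105191636 and LOC109504543, had ratios from -4.24 to -4.20. The ratio therefore passes the edge without a gap.

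In gamergate ovaries few members changed after Kr-h1 siRNA, although most stood somewhat lower. Of the 197 members with an adjusted p, 5 fell and 0 rose (DESeq2, adjusted p under 0.05), against 5.9% of all tested genes lower and 8.95% higher. The share of members that fell, 2.54%, was below that background. At an unadjusted p under 0.05, 19 were lower and 0 higher, where 12.8% and 15.3% of all genes were. The deposited log2 changes had a median of -0.62 and quartiles of -0.87 and -0.44, with 188 members negative and 12 positive. Over all eligible genes the median was 0.00.

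The 5 that fell have no symbol. The largest called decrease was that of LOC105190024, from a mean of 456 to 27.8 (deposited log2 change -4.04, recovered SE 1.47, adjusted p = 0.0451). LOC105192650 fell from 1335 to 157 (deposited log2 change -3.08, recovered SE 0.76, adjusted p = 0.00287). LOC105184230 fell from 2200 to 347 (-2.67, recovered SE 0.82, adjusted p = 0.0167). LOC105182109 (-1.67, adjusted p = 0.0497) and LOC105187836 (-1.35, adjusted p = 0.00677) completed the set in the deposited table. LOC105190024 and LOC105182109 were no longer called when p-values were adjusted over every gene with one (adjusted p = 0.0513 and 0.0565).

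The low number of calls stood beside a wide spread between gamergates. The recovered SE of the log2 change had a median of 0.66 over members and 0.11 over eligible genes. For LOC105181257, with means of 581882 in control and 722290 in Kr-h1 gamergates, the deposited log2 change was 0.31 with a 95% interval from -2.29 to 2.91, so even a change of several-fold was not detectable. The lowest value belonged to LOC105181254, with a log2 change of -9.23 in the deposited table, for which no p-value is given. LOC105183116 (-3.70) and LOC105190429 (-1.65) also have no p-value in gamergates, and the reason is not given in the sources used here.

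In worker ovaries 12 members fell after Kr-h1 siRNA, and most others stood lower. Of the 176 members with an adjusted p, 12 fell and 0 rose, against 2.69% of all tested genes lower and 2.23% higher in that comparison. The members' share was 6.82%. The 0 that rose depended on how members were chosen. It became 5 with a mean of at least 500 required and 3 with genes ranked by the caste fold change in control ants. The 24 members without an adjusted p in the deposited table had the lowest worker means of the 200. At an unadjusted p under 0.05, 92 of the 200 were lower and 0 higher, where 11.3% and 8.48% of all genes were. The members' p-values come from the same 9 ants and are not independent of each other.

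The deposited log2 changes of the members in workers had a median of -1.48 and quartiles of -2.06 and -0.75, with 177 negative and 23 positive. The median over eligible genes was 0.06. Fold changes in workers differed with mean count, and members are low there. Among the 330 other eligible genes with a worker mean under 100 the median was -0.10, and among the 173 members under 100 it was -1.53. With the median of each of 20 strata of mean count subtracted, the members' median became -1.13 and 4 of the 12 calls remained. Members without an adjusted p in workers were not centred, and their deposited values enter that median. The 200 genes at the worker-rich end also stood lower in workers after Kr-h1 siRNA, with a median of -1.08, and 13 of the 169 tested (7.69%) fell. In gamergates their median was 0.87, with 52 called higher and 0 lower. The lower levels in workers were thus shared by both ends of the caste ratio, while the medians in gamergates had opposite signs.

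**Figure D3:**
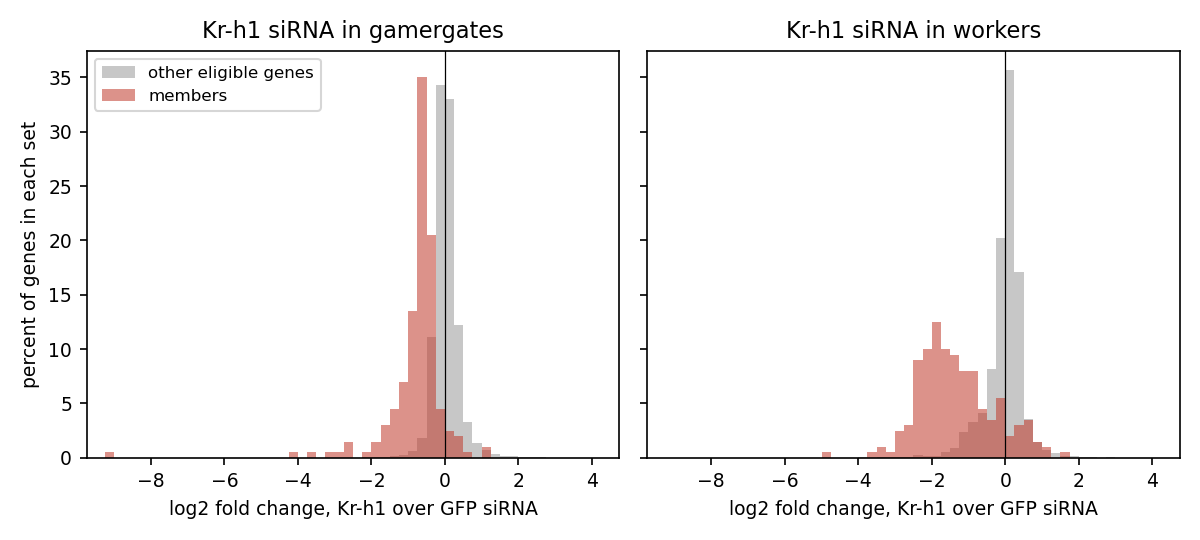
Distribution of the deposited log2 fold changes, Kr-h1 over GFP siRNA, in gamergates (left) and workers (right), as the percent of genes in bins of equal width for the 200 members (red) and the 8248 other eligible genes (grey). The members centre at -0.62 in gamergates and at -1.48 in workers, while the other genes centre near 0 in both.

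The calls in workers were led by LOC105181254, whose mean fell from 664 to 20.9 (deposited log2 change -4.99, recovered SE 0.96, adjusted p = 1.19e-04). LOC105182691 fell from 11.8 to 0.954 (deposited log2 change -3.62, adjusted p = 0.0293) and LOC105191383 from 9.57 to 0.960 (-3.32, adjusted p = 0.0284). The smallest called changes in the deposited table were those of LOC105183394 (-1.81, adjusted p = 0.0119), LOC105182442 (-2.04, adjusted p = 0.0336) and LOC105190940 (-2.33, adjusted p = 0.00742).

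LOC105181257 fell in workers from a mean of 30837 to 4791 (deposited log2 change -2.69, recovered SE 0.73, adjusted p = 0.0151). LOC105181252 fell from 65.6 to 9.36 (-2.81, adjusted p = 0.00594). The remaining calls in the deposited table were LOC105181253 (-3.07), LOC105189914 (-2.61), LOC105181587 (-2.40) and Wat. The 4 calls that remained after centring by strata of mean count were LOC105181254, LOC105181257, LOC105181252 and LOC105190940.

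The summed group means of all members were 47838 in control and 12059 in Kr-h1 workers. Of these sums LOC105181257 made up 30837 and 4791, and without it they were 17001 and 7268. In gamergates the sums were 1239270 and 1171930, or 657391 and 449640 without it.

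The worker response also differed along the ranking. The 100 members with the lowest ratio had a median log2 change of -1.91 in workers, from -3.62 to -0.56, and the other 100 had a median of -0.86, from -4.99 to 1.59. In gamergates the medians were -0.65 and -0.61. The ratio includes the Kr-h1 workers, so a lower level in them moves a gene towards the top of the ranking, and this order is no test.

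No member was called for a response that differed between castes. The worker change minus the gamergate change was tested for 12509 genes (z test, recovered SEs), which called 4.06% of them higher in workers than in gamergates and 3.85% lower. Of the 197 members with a value, 0 were called in either direction. Centring by strata of mean count gave 1 higher among the same members, and sets chosen with a mean of at least 500 or by the caste fold change in control ants gave 5 and 4. At an unadjusted p under 0.05 there were 3 higher and 8 lower, against 12.5% and 12.4% of all genes. The median SE of the difference was 1.12 for members and 0.22 for eligible genes, so differences of moderate size were not detectable.

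Both log2 changes were negative for 166 members, 22 were negative in gamergates only, 11 in workers only and 1 in neither. Across the 200 genes, which share the same ants, the changes in the castes had a Spearman's rho of 0.13. The 5 genes called in gamergates and the 12 called in workers had no gene in common. LOC105190024 and LOC105182109 had no adjusted p in workers and LOC105181254 had none in gamergates, so these could not be called in both. No overlap over all tested genes is given here, and nothing is read from this count. LOC105181254 was lowest in both castes, with the gamergate value untested. LOC105192650, called in gamergates, had a deposited log2 change of -0.84 in workers (adjusted p = 0.275), and the difference of 2.24 had an SE of 0.89 (z test, adjusted p = 0.0936). With fold changes centred by strata of mean count this difference was 2.78 and was called (z test, adjusted p = 0.0366).

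**Figure D4:**
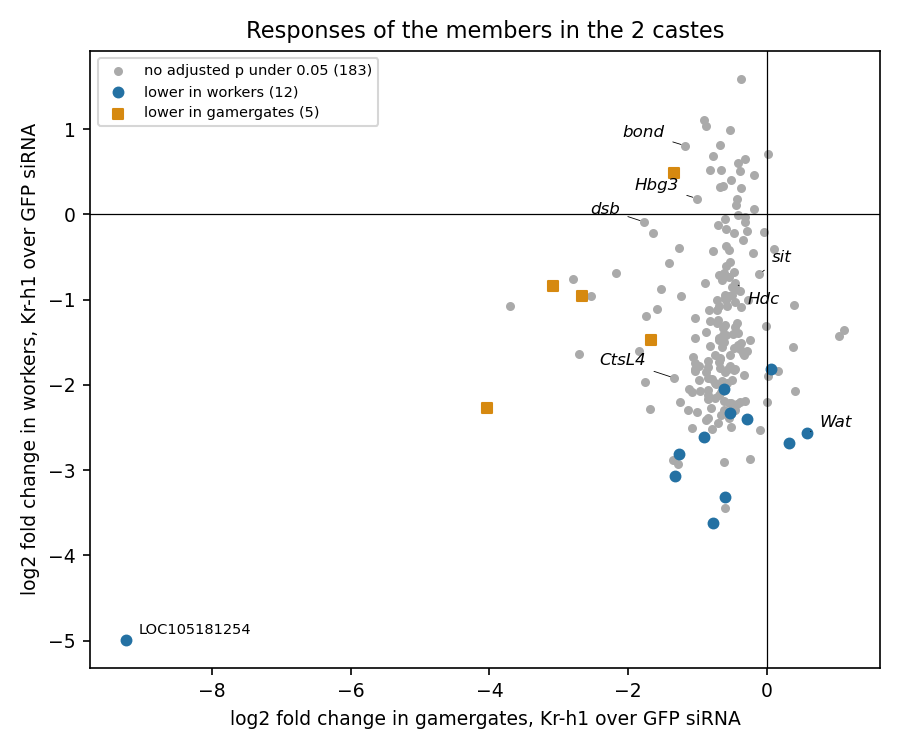
Deposited log2 fold change after Kr-h1 siRNA in gamergates (x) and workers (y) for the 200 members; blue circles mark the 12 members that fell in workers and orange squares the 5 that fell in gamergates. Most points lie left of 0 and below 0, LOC105181254 stands apart at -9.23 and -4.99, and no point carries both marks. Some marked members have no adjusted p in the other caste and could not carry both.

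Many members stood next to each other in gene order, a feature the rule did not use. The order was that of RefSeq assembly Hsal_v8.6, with genes absent from the deposited table skipped. In it, 97 of the 200 (48.5%) had another member as direct neighbour. In the same order 83 (41.5%) stood in 16 runs of at least 3 members, with at most 1 other gene between successive members. Of the 200 genes at the worker-rich end, 46 (23%) had such a neighbour and 19 stood in 4 runs. The definition of a run was chosen after the identifiers had been seen. Runs of neighbouring genes can be copies of each other, and whether reads were split between similar copies was not tested.

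The flanking genes that were not members also leaned towards gamergates, most of them by less than the members. The eligible ones had a median log2 ratio of -0.48, against -0.15 for the eligible genes outside the 200. A ratio under -1 was found in 34.5% and 8.81% of them. Of the 145 eligible ones, 21 (14.5%) had a log2 ratio under -3, against 1.58% of the eligible genes outside the 200.

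The longest run held 13 members with 1 other gene among them, including LOC105181752 and LOC105181760. Their log2 changes in gamergates were close to each other, from -0.98 to -0.52 in the deposited table. In workers they ran from -2.22 to 1.11 with a median of -1.96, and 12 of the 13 were negative. A run of 9, which includes LOC105188811 and LOC105188815, ran from -1.36 to -0.32 in gamergates and from -2.88 to -1.75 in workers, where its median was -2.27. None of these 22 genes was called in either caste. Of all tested members 2.54% fell in gamergates and 6.82% in workers, so a count of 0 among so few genes says little.

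A run of 5 members held 4 of the 12 calls in workers. It consists of LOC105181252, LOC105181253, LOC105181254, LOC105181257 and LOC105181258. The member of this run that was not called, LOC105181258, had a deposited log2 change of -2.41 in workers and no adjusted p there, at a mean of 4.94. In gamergates the 5 ran from -9.23 to 0.31, and none of the 4 with a p-value was called. LOC105189914, in another run of 5, was the other run member that fell in workers. The 83 members in runs had a median of -1.83 in workers and the 117 others one of -1.32, and the medians in gamergates were -0.65 and -0.61.

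**Figure D5:**
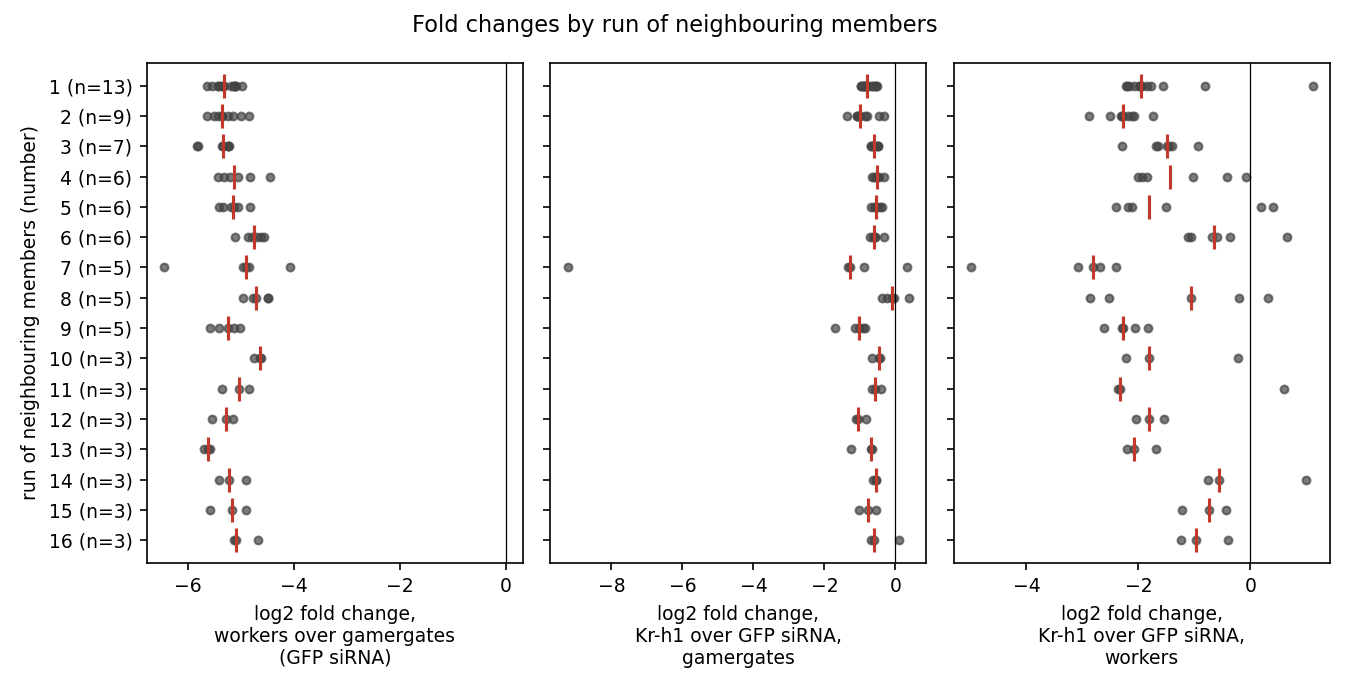
Deposited log2 fold changes of the 83 members in 16 runs of neighbouring members, with 1 row per run, 1 point per gene and the median as a red bar, for workers over gamergates (left) and for Kr-h1 siRNA in gamergates (middle) and workers (right). Runs are numbered by size; in run 1 the gamergate values lie between -0.98 and -0.52, while run 7 holds LOC105181254 at -9.23 and run 8 has a median of -0.09.

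None of the 15 lists of ovary pathway and cell type genes held a member, but the lists were matched by symbol. Only 7 of the 200 members have a descriptive symbol, so the 193 others could not match. Of 202 list genes measured, 175 were eligible and 0 were members, where 3673 eligible genes have a symbol. With so few members open to a match, the 0 says nothing about the cell types of the members. Taking the lowest ratio of each list, the nearest genes were Elk (-4.14), named for a potassium channel of nerve, and the ecdysteroid synthesis gene sad (-3.81). Next came ndl (-3.60), which encodes an eggshell protease of the fly. Elk and ndl are among the 3 genes left out by the rule, and both lie outside the range of the 200 members. Of the eligible list genes the nearest were sad at rank 242 of the ratio and the eggshell gene yellow-g (-3.54) at rank 269.

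The lists differed in how their genes stood after Kr-h1 siRNA, and their counts are read against the 2.69% of all tested genes called lower and 2.23% higher in workers, and 5.9% and 8.95% in gamergates. Of 16 genes of the follicle epithelium and eggshell, 6 fell and 0 rose in workers, with a median log2 change of -0.73, and in gamergates 5 of the 14 tested fell and 4 rose (median -0.47). Their summed group means were 27909 in control and 15303 in Kr-h1 gamergates, and 12061 and 11049 in workers. These sums include ndl, which had a gamergate mean of 3670 and a deposited log2 change of -3.87 there, so they do not describe the list evenly. The 19 germline genes had medians of 0.09 in gamergates and 0.07 in workers, with 2 and 1 called higher and 0 lower, and their summed means were 98289 and 99330 in gamergates and 65948 and 83775 in workers.

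Summed levels of muscle and fat body markers were lower in Kr-h1 than in control workers. The sum of nerve markers was higher, although the median nerve gene stood lower (log2 change -0.14) and 8 of the 15 were negative. This sum includes the nerve list gene Dsk, which had a deposited log2 change of 2.93 in workers. The sum therefore does not describe the nerve list evenly. Of 14 muscle genes 12 were negative in workers, with a median of -0.996 and 0 called, and their summed group means were 34640 and 21075. In gamergates their median was 0.53, with 4 called higher and 0 lower, and the sums were 13300 and 15027. For 10 fat body genes the sums were 44392 and 27804 in workers, with 1 called lower, and 14590 and 19207 in gamergates, with 3 called higher. For 15 nerve genes the sums were 5085 and 7691 in workers, where 2 of the 13 tested rose and 2 fell, and 11073 and 10189 in gamergates, where 5 rose and 1 fell. Of 7 genes of cuticle and trachea, 2 of the 6 tested fell and 0 rose in workers, and 2 fell and 1 rose in gamergates, with summed means of 1299 and 667 in workers and 2610 and 2107 in gamergates. Of 4 haemocyte genes 1 fell in workers, where the sums were 2672 and 2367. No measured gene of these lists was at 0. Their part in the members' values was not tested.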

How the data were processed

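Per the submitters' processing notes, the authors used bcl2fastq, STAR, featureCounts and DESeq2; for genome build, annotation, strand setting and versions, nothing is given in the sources used here. The deposited values are, per gene, log2 fold changes with their raw and adjusted p-values and a normalized count averaged over the libraries compared; the table has 13693 genes and 3 comparisons. Calls are the authors' adjusted p under 0.05 (DESeq2) and were not retested.

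From these values, the SE was recovered as fold change over the normal quantile of p, which assumes a Wald test. Group means were solved from mean, fold change and group size; against the deposited caste fold change they were off by a median of -0.16 on the log2 scale for members, with an SD of 0.03 between genes. Differences between castes were tested by a z test with Benjamini-Hochberg adjustment over 12509 genes, checked on simulated data. Intervals are 95% normal intervals. Python 3.11.15, scipy 1.17.1 and pandas 2.3.3 were used.

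RefSeq's table for assembly Hsal_v8.6 gave symbols and gene order, and all 200 members matched. Neighbours were taken among genes of the deposited table only, so other RefSeq genes may lie between them. A new scaffold was assumed wherever start positions fell back, so some scaffold ends may be missed. Protein and promoter sequences were not used here. The members, gene lists and tests were chosen with earlier results of these data known. Named genes were all members with a symbol, those with the lowest ratio, the largest mean or the largest called changes, and those at the edge of the ranking; other members of the runs and genes without a p-value were named after their values were seen. Nothing says that ants of a group came from separate colonies or cohorts.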

Additional observations from a re-analysis of the deposited data

How the results depend on the processing

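No paired analysis was possible because the deposited table holds no values per ant; for the same reason no replicate was left out. At an adjusted p under 0.01, 2 members fell in gamergates and 3 in workers. Adjusted over every gene with a p-value, 3 fell in gamergates. Centring fold changes by strata of mean count left 4 that fell in workers and gave 1 member, LOC105192650, with a higher response in workers than in gamergates. Choosing 200 genes with a mean of at least 500 (123 shared with the members) gave 5 that rose in workers and 5 with a higher response there. Ranking by the caste fold change in control ants (180 shared) gave 3 and 4. A pseudocount of 10 (178 shared) or a mean of at least 50 (184 shared) moved no count by more than 1.5 times. Of the 17 single calls, 12 were lost at 0.01, 3 with the wider adjustment and 8 with centring, and none changed sign. The cause of these shifts was not tested beyond the stricter threshold and the wider adjustment themselves. Changing a group size by 1 ant left the median solved caste ratio of -5.28 between -5.34 and -5.21. Depth per library is unknown, and low worker means limit what can be called there.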
